A study of Mus musculus with 4 samples.

Results

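The effect of Mef2a loss shared by both heart chambers was measured as the mean of the atrial and the ventricular difference between knockout and wild type, on the log2 scale. The values covered 9437 of the 18783 genes named on the array. A gene was included when the brighter array of each knockout and wild type pair reached 5.71 (log2 intensity), the midpoint of every deposited value, which is called the floor here. Tmem17 lay just inside that limit, at 5.7067, and Recql5 just outside it, at 5.7050.

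Atria and ventricles came from mice aged 2 months, of wild type or Mef2a knockout genotype, which made 4 groups. Each group was 1 array that carried RNA pooled from 7 mice, either Mef2a+/+ or Mef2a-/-, and animals of both sexes were used per the design text. The sources used here do not give the number of each sex per pool, the strain, the deleted part of the gene or whether the same mice gave both chambers. The labels name no Cre line or tissue promoter, so the knockout is taken here to be in the whole animal.

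MEF2A belongs to the MADS-box family of transcription factors and is abundant in striated muscle. It binds an A/T-rich DNA element, works together with the related MEF2C and MEF2D, and is held back by class IIa histone deacetylases. MEF2 factors are best known for driving genes of the contractile apparatus, of energy metabolism and of the structures that tie muscle cells together.

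Averaging over chambers gives 2 pairs, so each mean below stands with its SD over the 2 pairs (n = 2). The moderated test of limma was fitted to all 21212 probe sets, with chamber as a block, and called a gene at a Benjamini-Hochberg adjusted p under 0.05. The fit has 1 residual degree of freedom per gene. Its error is how much the knockout effect differed between chambers, and the variation between animals was not measured. Exchanging genotypes within chambers allows 4 arrangements and a smallest two-sided p of 0.5, so no exact test was of use. The knockout atria array had a narrower spread of values than the others (interquartile range 2.97 against 3.18 to 3.21), and its part in the results was not tested. Values of each chamber are therefore given for most genes.

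The heart muscle identity of the tissue was plain on all arrays. All 10 cardiomyocyte markers were above the floor, with a mean level between 11.90 and 12.04 on each array. The 10 markers of skeletal muscle fibres held 0 genes above the floor in both chambers, and 9 were below it on all 4 arrays, among them the fast myosin heavy chain genes. The remaining marker, Atp2a1, was above it only in wild type atria. It read 6.24 in wild type and 5.66 in knockout atria, and 5.33 and 5.38 in ventricles. The 5 thymocyte, 7 neutrophil and 8 measured lymphocyte markers were below the floor on all arrays.

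Mef2a itself read 10.32 in wild type and 10.41 in knockout atria, with 10.28 and 10.34 in ventricles. Its signal was thus no lower in knockout pools, and the array does not check the genotype labels. The mean difference was 0.08 ± 0.02 for Mef2a, 0.09 ± 0.07 for Mef2c and 0.01 ± 0.07 for Mef2d (log2, SD, n = 2). Mef2b had the largest mean of the family, 0.33 ± 0.05, but did not reach the floor in ventricles. Of the deacetylases that bind MEF2 factors, Hdac9 stood at -0.04 in atria and -0.21 in ventricles, Hdac5 at -0.05 and -0.13. None of the 7 measured genes of this group above the floor passed the test.

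Across the 9437 genes, limma called 1 gene (0.0106%, and 0.00471% of all probe sets), and that gene was lower. It was Myl1, the essential light chain of fast skeletal muscle myosin. A second count, which is not a test, took genes whose mean was at least 1.5-fold with the same sign in both chambers. It held 79 genes (0.837%), of which 54 (0.572%) were lower and 25 (0.265%) higher. At 2-fold it held 15 lower (0.159%) and 5 higher (0.0530%) genes. At an unadjusted p under 0.05, limma gave 335 lower (3.55%) and 205 higher (2.17%) genes. Together they were 540 (5.72%), close to the share that this threshold passes where nothing differs.

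The number of called genes differed between settings. It was 31 (0.328%), 22 of them lower (0.233%), when genes below the floor were removed before the fit. It was 31 (0.328%), 23 lower (0.244%), after median centring of the arrays and 21 (0.223%), 14 lower (0.148%), when the prior variance followed intensity. The first and the last of these lists shared 20 genes. Quantile normalization and lowess centring of each pair each gave 3 (0.0318%), the robust fit gave 1, and without the chamber block 0 passed, with 86 genes at an unadjusted p under 0.05. In what follows "the fit on genes above the floor" means the first of these alternatives. Its filter takes the brighter array of each pair, so some genes enter it through 1 genotype only. The filter is thus not independent of the difference tested, and an adjusted p from that fit is no second support.

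**Figure D1:**
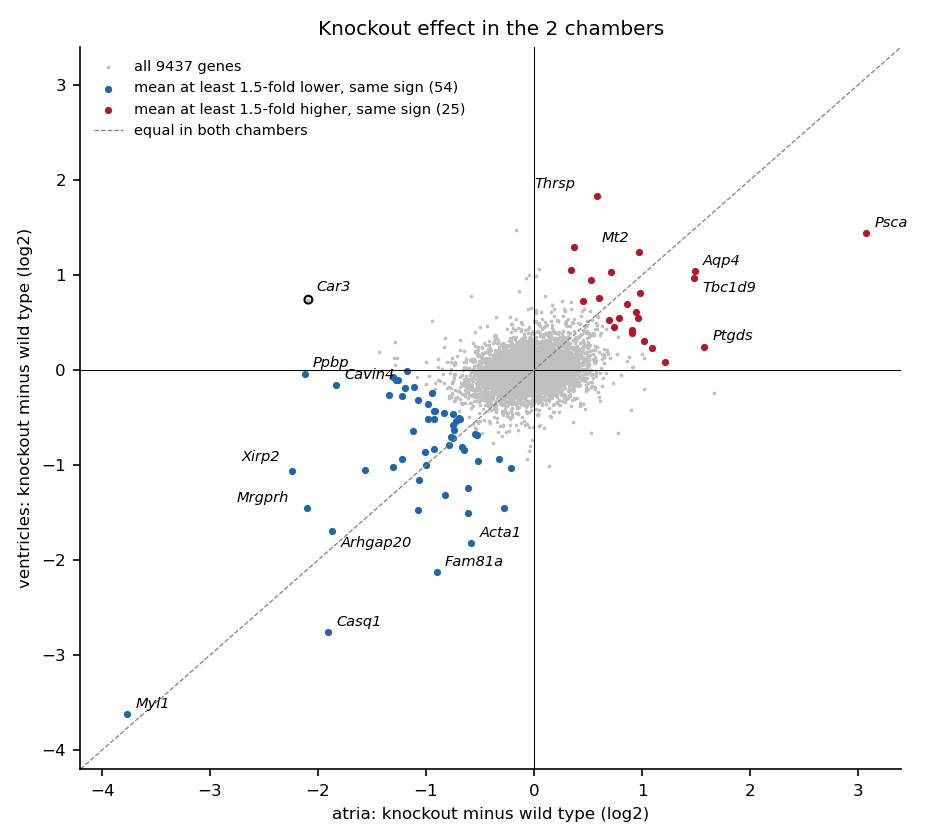
Each point is 1 of the 9437 genes, with the knockout minus wild type difference in atria on the x axis and in ventricles on the y axis (both log2). Blue points are the 54 genes at least 1.5-fold lower on average with the same sign, red points the 25 higher. Myl1 lies near the line of equal effects at -3.77 and -3.62, and Car3 lies in the upper left at -2.09 and 0.74.

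Myl1 fell from 9.43 to 5.66 in atria and from 8.09 to 4.47 in ventricles. Both knockout arrays were below the floor, and both wild type arrays far above it. The mean log2 ratio was -3.70 ± 0.10 (SD, n = 2), or 12.97-fold lower, with limma's adjusted p = 0.0016. The call was lost without the chamber block (adjusted p = 1) and stayed in each of the other fits, where the adjusted p lay between 4.343e-07 and 0.0014.

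Other skeletal-type genes, of the calcium store and the contractile apparatus, followed, none of them past limma's main test. Casq1, the calcium-binding protein of the skeletal muscle calcium store, read 6.93 in wild type and 5.02 in knockout atria, and 8.48 and 5.72 in ventricles. Its mean was -2.33 ± 0.60, a 5.04-fold difference (adjusted p = 0.23, or 0.0046 in the fit on genes above the floor). The 2 genotypes did not overlap, as in 1037 (11.0%) of all genes above the floor that were lower in this way. The chambers differed in wild type level, with more signal in ventricles.

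Acta1, the skeletal type of alpha actin, went from 7.42 to 6.84 in atria and from 9.92 to 8.10 in ventricles, a mean of -1.20 ± 0.88. Here the genotypes overlapped, since knockout ventricles stayed above wild type atria. The giant thin filament protein gene Neb read 7.10 and 6.49 in atria and 6.66 and 5.15 in ventricles (mean -1.06 ± 0.64). Tmod4, which caps the pointed end of thin filaments, read 7.45 and 6.84, and 8.45 and 7.21 (mean -0.93 ± 0.44). Mybpc2, a myosin-binding protein C of fast fibres, was at -0.22 and -1.03 (mean -0.62 ± 0.58). For all 4 of these genes the ventricular difference was the larger one.

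These genes belong to a list of 32 skeletal-type contractile genes, of which 31 were on the array and 15 above the floor. Despite its name the list also holds genes of the calcium store and of energy supply, such as Casq1, Jsrp1 and Ckm. Of the 15, 1 was called lower and 0 higher, and 6 were past 1.5-fold lower with the same sign and 0 higher. The list's median of the means was -0.39, that of Tnni2, a troponin of fast fibres, against -0.02 over all 9437 genes. Its medians in the single chambers were smaller, -0.24 in atria and -0.20 in ventricles. The median also rested on the floor. Over all 31 list genes on the array the middle value was -0.06, that of Lmod3. Myl1 reached the floor in both chambers only on the wild type arrays. So did Casq1, Mybpc2 and Tnnt1 in atria, and Neb and Tnni2 in ventricles. Tpm3 reached it in atria only on the knockout array. In 10 of the 15 both chambers were negative, against 32.1% of all genes above the floor. Klhl41, a muscle protein that stabilises nebulin, came next at -0.60 in atria and -0.49 in ventricles. The other 5 were Tpm2, Tpm3, Jsrp1, Lmod3 and Ckm. The tropomyosin gene Tpm2 stood at -0.17 in atria and 1.47 in ventricles, and Tpm3 at 0.92 and 0.03. Jsrp1, a protein of the calcium store, was at 0.24 and -0.08, and the actin nucleator gene Lmod3 at -0.21 and 0.09. The muscle creatine kinase gene Ckm was at -0.01 and 0.03.

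**Figure D2:**
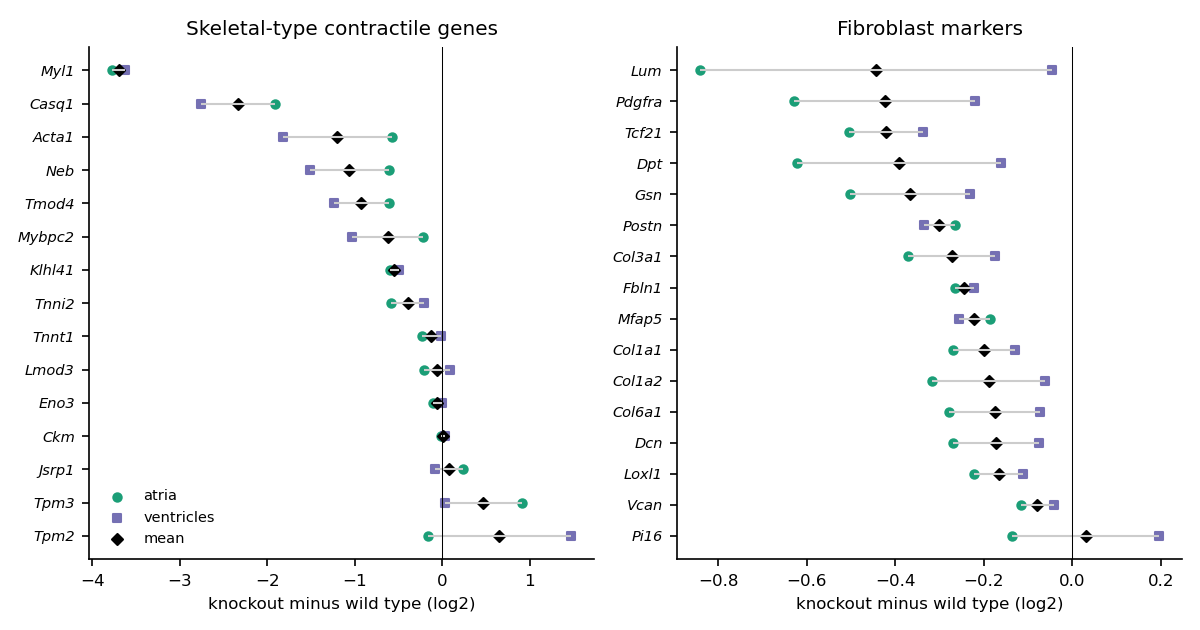
Knockout minus wild type difference (log2) in atria, in ventricles and on average for the 15 skeletal-type contractile genes above the floor (left) and the 16 fibroblast markers (right), 1 gene per row. Muscle differences run from -3.70 for Myl1 to 0.65 for Tpm2 on average, and 15 of the 16 fibroblast markers are negative in both chambers.

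The contractile genes proper to heart muscle differed far less. Of 21 cardiac sarcomere genes above the floor 0 were called and 0 past 1.5-fold with the same sign, and the median was -0.03. Myh7, the slow myosin heavy chain, stood at 0.02 in atria and 0.99 in ventricles, and Myl7, the atrial regulatory light chain, at -0.10 and -0.54. Myh6, the main myosin heavy chain of the adult mouse heart, was at -0.12 and -0.06.

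Xirp2 led the Z-disc and intercalated disc genes. This actin-binding protein of the sites where muscle cells join read 8.999 and 6.76 in atria and 9.98 and 8.91 in ventricles. The mean was -1.65 ± 0.83 (adjusted p = 0.46, or 0.0387 in the fit on genes above the floor). Its paralogue Xirp1 was at 0.12 and 0.16. Among 25 Z-disc and stress-sensing genes Xirp2 was the 1 past 1.5-fold, and the median of -0.02 changed sign under quantile normalization. Pdlim3, an actinin-binding LIM protein, was at -0.42 and -0.53.

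Of 30 genes of costameres, caveolae and intercalated discs 2 were past 1.5-fold lower and 0 higher. They were Cavin4, a muscle caveolar coat protein, with -1.83 in atria and -0.16 in ventricles, and the laminin-binding integrin gene Itga7 at -0.94 and -0.24. Both rest on the atrial pair. The list's median was -0.04.

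Asb4 and Asb14 encode substrate-binding subunits of cullin ubiquitin ligases. Asb4 read 6.30 and 4.99 in atria and 6.48 and 5.46 in ventricles, with a mean of -1.16 ± 0.20 (adjusted p = 0.23, or 0.0074 in the fit on genes above the floor). Asb14 read 8.52 and 7.84, and 9.46 and 8.95, with a mean of -0.60 ± 0.12. They were the 2 past 1.5-fold lower among 20 genes of the Asb and muscle ubiquitin ligase list, whose median was -0.05. For Asb4 the genotypes did not overlap (11.0% of all genes above the floor were lower in this way), while for Asb14 wild type atria lay below knockout ventricles.

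Promoter windows are shown for 4 of these muscle genes because MEF2 factors act on such sequences. The 4 were chosen by hand and each holds a match of the motif marked, so they do not represent the lower genes. Myl1, the 1 called gene, had no MEF2 consensus in its window. Each runs from 250 bases before to 50 bases after the annotated start, as given by RefSeq for mouse GRCm38.p6, 5′ to 3′ on the gene's strand. They are Myl1 at chr1:66945007-66945306, minus strand, Xirp2 at chr2:67445752-67446051, plus strand, Asb14 at chr14:26894364-26894663, plus strand and Acta1 at chr8:123894726-123895025, minus strand. Capitals mark a TATAAA match on the opposite strand in Myl1, the MEF2 consensus in Xirp2 and Asb14, and a CArG box, the site of serum response factor, in Acta1.
Myl1: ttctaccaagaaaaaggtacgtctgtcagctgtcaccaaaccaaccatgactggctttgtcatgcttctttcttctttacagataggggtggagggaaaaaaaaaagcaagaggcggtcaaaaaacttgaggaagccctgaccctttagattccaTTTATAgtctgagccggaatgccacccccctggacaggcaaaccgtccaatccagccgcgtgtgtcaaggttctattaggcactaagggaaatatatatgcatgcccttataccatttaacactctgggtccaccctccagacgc
Xirp2: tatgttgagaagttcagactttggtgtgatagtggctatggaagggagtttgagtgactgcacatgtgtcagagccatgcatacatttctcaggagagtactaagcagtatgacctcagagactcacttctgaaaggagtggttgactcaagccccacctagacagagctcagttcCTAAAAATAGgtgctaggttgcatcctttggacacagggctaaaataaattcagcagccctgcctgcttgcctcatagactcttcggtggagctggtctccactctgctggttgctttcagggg
Asb14: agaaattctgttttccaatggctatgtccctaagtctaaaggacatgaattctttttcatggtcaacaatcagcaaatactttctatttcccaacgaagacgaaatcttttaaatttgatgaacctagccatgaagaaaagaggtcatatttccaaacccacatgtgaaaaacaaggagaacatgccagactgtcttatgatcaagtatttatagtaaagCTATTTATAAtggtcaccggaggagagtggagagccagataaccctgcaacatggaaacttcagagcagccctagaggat
Acta1: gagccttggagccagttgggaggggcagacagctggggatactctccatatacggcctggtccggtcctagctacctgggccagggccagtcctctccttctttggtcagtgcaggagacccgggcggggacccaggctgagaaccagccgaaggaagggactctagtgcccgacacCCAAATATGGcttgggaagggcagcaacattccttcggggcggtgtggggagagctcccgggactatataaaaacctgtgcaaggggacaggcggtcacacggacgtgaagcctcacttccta

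The MEF2 match of Xirp2, CTAAAAATAG, lay 74 to 65 bases before the start, and that of Asb14, CTATTTATAA, 30 to 21 bases before it. The Acta1 window held CCAAATATGG at 73 to 64 bases before the start. Both strands were searched. Of the 54 lower genes 40 had windows in the table, 46 in all. The MEF2 consensus was in 3 of the 46 (6.52%, exact 95% Clopper-Pearson interval 1.37% to 17.9%, counting error only). It was in 1.86% of the 9877 windows of all genes above the floor and in 3.19% of all 32851 windows. Both of these shares lie inside that interval. It treats windows of the same gene as independent, so it serves as a rough guide and not as a test. Besides Xirp2 and Asb14 the third was a gene known by a clone name. Of the 15 windows of higher genes 1 held it, that of the creatine kinase gene Ckb. The CArG box was in 3 of 46 windows of lower genes, those of Acta1, Itgb6 and Ppbp. It was in 1.39% of those of all genes above the floor, and in 1 of 15 of higher genes, that of Tbc1d9. TATAAA was in 10 of 46 windows of lower genes (21.7%) and in 7 of 15 of higher genes (46.7%), against 7.46% in those of all genes above the floor and 13.6% of all windows. Among these windows MEF2 and TATAAA matches overlapped in 4 instances, Asb14 and Ckb included. A match is a run of letters and says nothing of binding, and these windows do not reach distant enhancers.

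Several of the lowest genes outside the contractile apparatus act at the membrane or in signalling. Arhgap20, a GTPase-activating protein, read 7.78 and 5.92 in atria and 8.36 and 6.67 in ventricles. The mean was -1.78 ± 0.13, a 3.43-fold difference, with the smallest adjusted p after Myl1 (0.0597, or 0.00059 in the fit on genes above the floor). Knockout and wild type arrays did not overlap, as in 11.0% of all genes above the floor that were lower in this way. Mrgprh, an orphan receptor of the Mas-related family, read 6.80 and 4.70, and 7.82 and 6.37 (mean -1.78 ± 0.46). It was the 1 gene past 1.5-fold of 12 G protein-coupled receptors above the floor. The angiotensin receptor gene Agtr1a, next in size, was at -1.08 in atria and -0.07 in ventricles.

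Abcb4, a transporter known for moving phosphatidylcholine into bile, read 6.196 and 5.13 in atria and 7.46 and 5.98 in ventricles (mean -1.27 ± 0.29). Together with Abcd2, a peroxisomal transporter of very long chain fatty acids (-0.92 and -0.43), it made 2 of 22 ABC transporters past 1.5-fold lower, against 0 higher. Abca4, not among the 22 because it was below the floor in atria, was higher, at 0.65 and 1.45. Fam81a read 6.08 and 5.18, and 8.13 and 6.001 (mean -1.51 ± 0.87). Armh4 read 6.01 and 4.45, and 6.01 and 4.96 (mean -1.31 ± 0.36). Smco1 read 6.63 and 5.41, and 7.51 and 6.57 (mean -1.08 ± 0.20). In Armh4 both knockout arrays were below the floor, so its difference reaches into the range where the method compresses values.

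Ppbp, a chemokine stored in platelets, was the remaining gene of the 12 lowest. It read 8.69 and 6.57 in atria but 6.17 and 6.14 in ventricles, so its mean of -1.08 ± 1.48 is an atrial difference. Of the 7 other platelet and megakaryocyte markers on the array 3 were negative in both chambers. They were Gp9 at -0.55 in the atrial and -0.05 in the ventricular pair, Pf4 at -0.42 and -0.11, and Tubb1 at -0.33 and -0.14. Treml1 stood at 0.40 and -0.29 and, below the floor in at least 1 chamber, Itga2b at -0.23 and 0.23, Gp5 at 0.26 and 0.01 and Gp1bb at 0.22 and 0.11. The summed intensity of all 8 markers was 984 in wild type and 590 in knockout atria, with 475 and 455 in ventricles. Without Ppbp, a sum added after its values were seen, it was 571 and 495 in atria and 403 and 385 in ventricles. The part of platelet RNA in the difference of Ppbp was not tested. In such bulk samples fewer cells of a type and less RNA per cell cannot be told apart.

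Further down the lower set, some genes, named here after their values were seen, had like differences in both chambers. Fgf14, a factor that binds voltage-gated sodium channels, was at -1.002 in atria and -0.996 in ventricles. Intu, needed for cilium formation, was at -0.79 and -0.79. Slc2a12, a glucose transporter, was at -1.01 and -0.86. The cyclic AMP phosphodiesterase gene Pde7a differed more between chambers, at -0.83 and -1.32. Mamdc2 was at -0.75 and -0.72, Rnf150 at -0.77 and -0.71, the chemokine gene Cxcl12 at -0.65 and -0.84 and the metalloproteinase inhibitor gene Timp4 at -0.53 and -0.68. In the fit on genes above the floor the adjusted p was 0.0074 for Fgf14, 0.019 for Intu, 0.01 for Slc2a12 and 0.0191 for Pde7a, while in the main fit each was at least 0.23.

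Among the rest of the lower set, also named after their values were seen, some were alike in both chambers and others not. Clec12a, an inhibitory lectin receptor of myeloid cells, read 5.71 and 4.79 in atria and 5.81 and 4.99 in ventricles (mean -0.88 ± 0.07). Lilr4b, another inhibitory receptor, was at -0.75 and -0.58, and Retnla, a secreted product of alternatively activated macrophages, at -0.92 and -0.43. These genes were in no list, and the macrophage list did not share their direction, with a median of -0.01. Penk, the enkephalin precursor, read 7.50 and 6.16, and 7.07 and 6.81, so it differed mainly in atria. The mitochondrial folate enzyme gene Aldh1l2 was at -0.74 and -0.63, and the actin-severing protein gene Scin at -0.98 and -0.51. In contrast Tnfaip8 was at -0.28 in atria and -1.46 in ventricles.

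**Figure D3:**
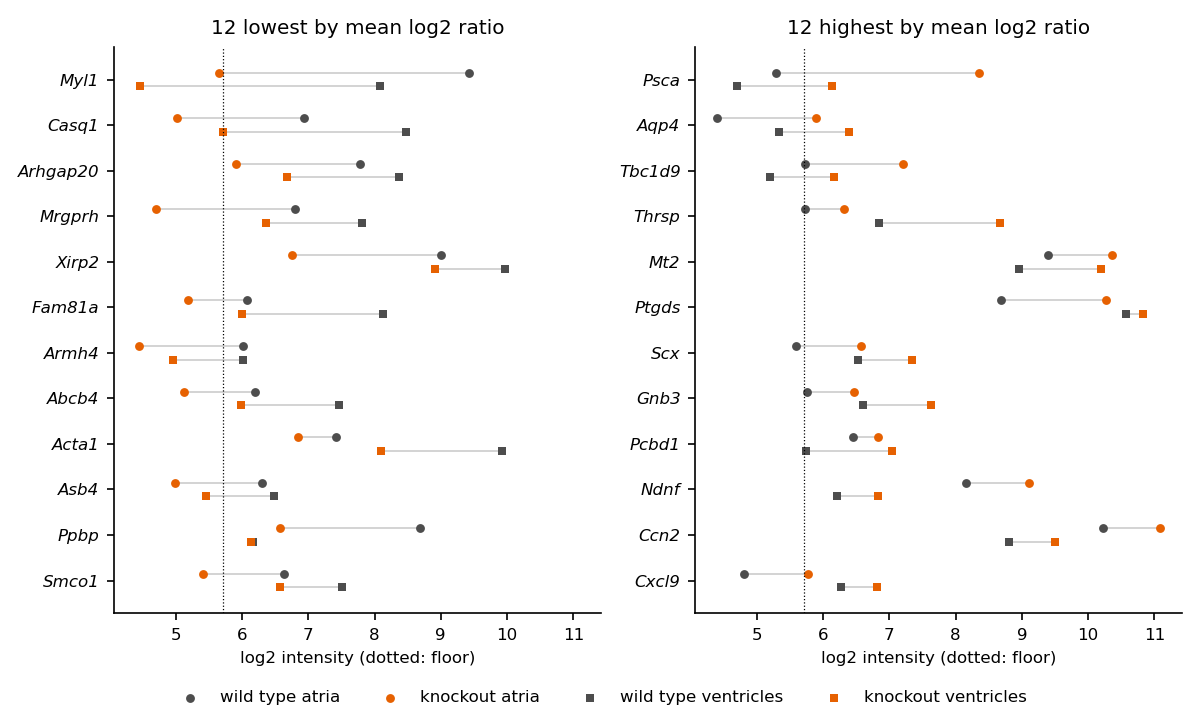
Log2 intensity on the 4 arrays for the 12 genes with the lowest (left) and the 12 with the highest (right) mean log2 ratio. Circles are atria and squares ventricles, grey is wild type and orange knockout, the line joins each pair and the dotted line is the floor at 5.71. In Armh4, Asb4 and Myl1 both knockout arrays lie left of the floor, and in Aqp4 and Psca both wild type arrays do.

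Among higher genes Psca, a surface protein of the Ly6 family, had the largest mean. It read 5.28 and 8.35 in atria and 4.69 and 6.14 in ventricles, a mean of 2.26 ± 1.15 or 4.79-fold (adjusted p = 0.43, or 0.0339 in the fit on genes above the floor). Aqp4, a water channel, read 4.40 and 5.89, and 5.34 and 6.38 (mean 1.27 ± 0.32). Both were below the floor on the wild type arrays, so both entered that fit only through the knockout arrays. Aqp1 and Aqp7, the other aquaporins above the floor, had opposite signs in the chambers, with 0.04 and -0.06 for Aqp1 and 0.07 and -0.16 for Aqp7.

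Tbc1d9, of a family of Rab GTPase-activating proteins, read 5.73 and 7.21 in atria and 5.20 and 6.17 in ventricles (mean 1.22 ± 0.36). Gnb3, a G protein beta subunit, read 5.76 and 6.47, and 6.60 and 7.63 (mean 0.87 ± 0.22). Pcbd1, an enzyme of tetrahydrobiopterin recycling, was at 0.37 and 1.30, and Ndnf, a secreted protein, at 0.94 and 0.62. Ptgds, the prostaglandin D synthase, read 8.69 and 10.27 in atria and 10.57 and 10.82 in ventricles. Its mean of 0.91 ± 0.94 was mostly atrial.

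Smaller differences, of genes named after their values were seen, completed the higher set. Ckb, the brain type of creatine kinase, read 9.14 and 9.93 in atria and 9.03 and 9.58 in ventricles (mean 0.67 ± 0.17). Both knockout arrays lay above both wild type arrays, as in 8.45% of all genes above the floor. Krt80, a keratin, was at 0.60 and 0.76, and Epn3, an endocytic adaptor of epithelia, at 0.52 and 0.95. Pde3b, a cyclic nucleotide phosphodiesterase, was at 0.35 and 1.06. Arc, a synaptic immediate early gene, was at 0.69 and 0.52, and Gadd45g, a stress-induced gene, at 0.91 and 0.40. H2-Q7, of the non-classical histocompatibility genes, was at 1.02 and 0.30.

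Metallothionein 2, which binds zinc and other metals, stood out among brightly measured genes. Mt2 read 9.39 and 10.36 in atria and 8.95 and 10.19 in ventricles, a mean of 1.10 ± 0.19 (adjusted p = 0.23, or 0.0074 in the fit on genes above the floor). The knockout arrays were both above the wild type arrays, as in 8.45% of all genes above the floor. Its neighbour Mt1 was at 0.19 and 0.33. Of 27 oxidative stress and metallothionein genes above the floor 1 was past 1.5-fold higher and 0 lower. The list's median was 0.09, with -0.01 in atria and 0.17 in ventricles.

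Thrsp, a regulator of fatty acid synthesis, read 5.72 and 6.31 in atria and 6.84 and 8.67 in ventricles (mean 1.21 ± 0.88). The 18 lipid synthesis genes had a median of 0.02 and 1 member past 1.5-fold, Thrsp. The desaturase gene Scd1 was at -0.93 and -0.21, and Scd2 at 0.06 and 0.61. Thus the list did not move as one.

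Ccn2 and Scx are genes of matrix-producing and tendon cells. Ccn2, connective tissue growth factor, read 10.22 and 11.08 in atria and 8.81 and 9.50 in ventricles, a mean of 0.78 ± 0.12 (adjusted p = 0.37, or 0.0254 in the fit on genes above the floor). The related matricellular gene Ccn1 was at 0.91 and 0.42. Scx, the transcription factor of tendon progenitors, read 5.59 and 6.57, and 6.53 and 7.34 (mean 0.90 ± 0.12). Of 14 tendon and cartilage markers 5 were above the floor, 2 of them (Ccn2 and Scx) past 1.5-fold higher, and 5 were below it on all arrays. The other 3 above the floor were Sox9 at -0.07 in atria and -0.04 in ventricles, Mgp at -0.21 and 0.08, and Col2a1 at 0.24 and 0.07. Cilp2, below the floor in ventricles, was at -0.48 and -0.11.

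Stress and fetal cardiac genes had the highest median of the lists with 5 or more measured genes, 0.18 over 15 genes. It rested more on ventricles (0.35) than on atria (0.02). In 9 of the 15 both chambers were positive, against 25.6% of all genes above the floor. In this list 2 were past 1.5-fold higher (Ccn2 and Ccn1) and 1 lower (Acta1). The 16 interferon response genes had a median of 0.10, with 9 positive in both chambers and 1 past 1.5-fold, the chemokine gene Cxcl9. It read 4.81 and 5.78 in atria and 6.27 and 6.81 in ventricles (mean 0.76 ± 0.30). The list of immediate early genes, which did not hold Arc, had a median of 0.08 with 10 of 17 positive in both chambers, and none past 1.5-fold. None of the genes in these lists was called.

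**Figure D4:**
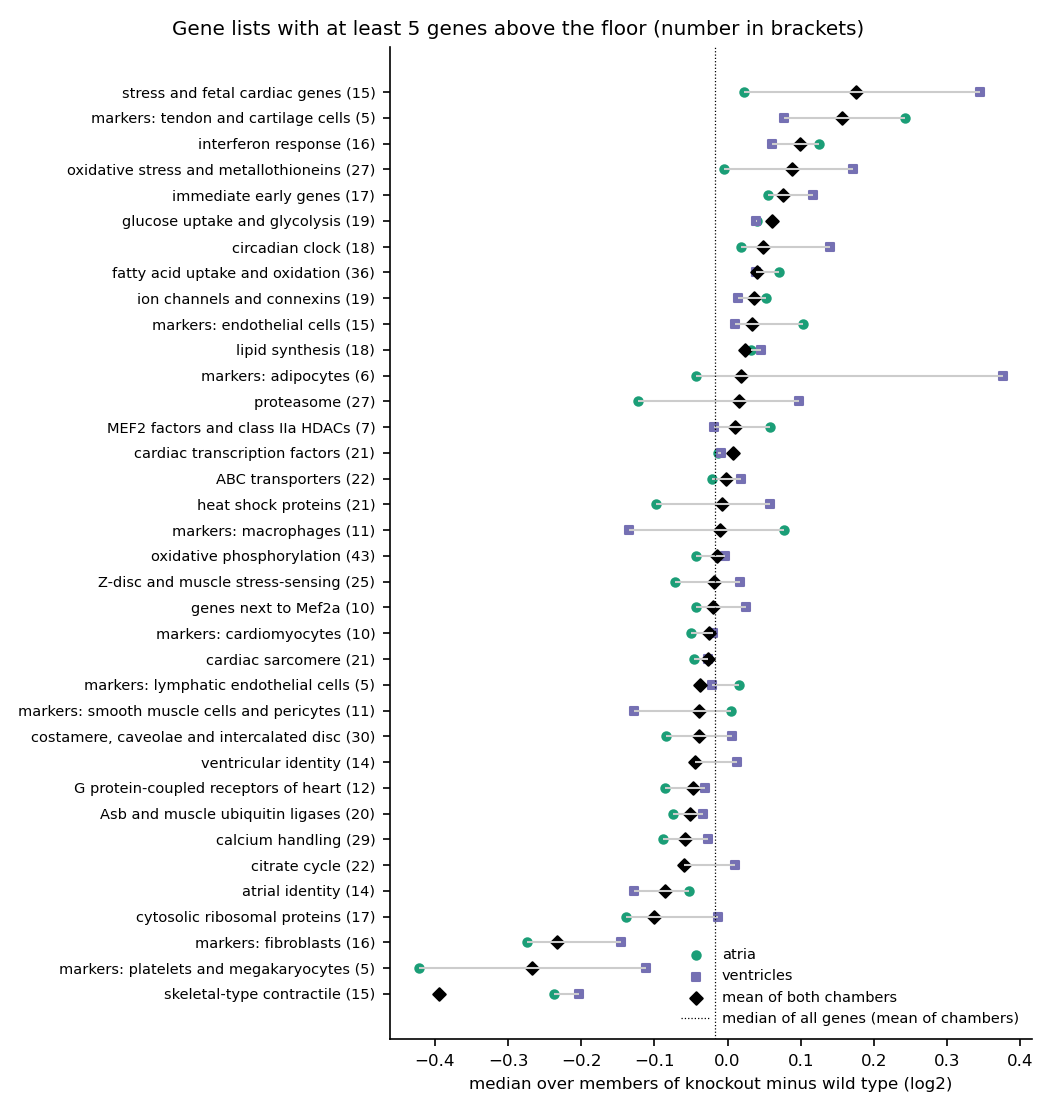
Median over each list's genes above the floor of the knockout minus wild type difference (log2), in atria (circles), in ventricles (squares) and of the mean of both (diamonds). The dotted line is the median of all 9437 genes, -0.02; the skeletal-type contractile list lies farthest to the left at -0.39, and the stress and fetal list farthest to the right at 0.18.

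Metabolic lists lay close to the median of all genes. Fatty acid uptake and oxidation had a median of 0.04 over 36 genes, with 17 positive and 7 negative in both chambers. The shares over all genes above the floor were 25.6% positive and 32.1% negative in both. Glucose uptake and glycolysis had 0.06 over 19, led by the regulatory enzyme gene Pfkfb2 at 0.47 and 0.26. The citrate cycle had -0.06 over 22, and oxidative phosphorylation -0.01 over 43, with its sign turned under quantile normalization and lowess centring. In none of these lists was a gene past 1.5-fold with the same sign. Hadhb, of the mitochondrial trifunctional protein, was at -1.74 in atria and 0.00 in ventricles, so its mean of -0.87 ± 1.23 is 1 chamber's value.

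The 29 genes of calcium handling had a median of -0.06, with 14 negative in both chambers and none past 1.5-fold with the same sign. Among all genes above the floor 32.1% were negative in both. Sln, the atrial inhibitor of the calcium pump, was at -0.05 in atria, where it read 12.09 and 12.04. In ventricles it was at -0.85, but read only 5.95 and 5.09. Camk2g, a calmodulin-dependent kinase subunit, was at -0.37 and -0.40. Of 19 ion channel and connexin genes Kcnd2, a subunit of the transient outward potassium current, was at -0.52 and -0.56, and Kcnj2, of the inward rectifier current, at -0.79 and -0.30. Cardiac transcription factors had a median of 0.01 over 21 genes, with Nr2f2 at -0.27 and -0.29. Circadian clock genes had 0.05 over 18, and the repressor gene Ciart, at 0.52 and 0.62, had the largest mean. Nr2f2 is also among the 20 named neighbours of Mef2a on its chromosome, 10 of which were above the floor with a median of -0.02.

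Atrial identity genes had a median of -0.09 over 14 genes, ventricular identity genes -0.04 over 14 and cytosolic ribosomal protein genes -0.10 over 17. Of 27 proteasome genes 21 had opposite signs in the chambers, as had 15 of 21 heat shock protein genes. Of all genes above the floor 57.7% had the same sign in both.

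Markers of other cells were read in the same way. All 16 fibroblast markers were above the floor, and 15 were negative in both chambers. The background share of genes negative in both chambers was 32.1%. The list's median was -0.23, and -0.21 under quantile normalization and lowess centring. Pdgfra, the receptor that marks these cells, read 9.01 and 8.38 in atria and 7.998 and 7.78 in ventricles. The transcription factor gene Tcf21 was at -0.51 and -0.34, and Lum, a collagen-binding proteoglycan, at -0.84 and -0.05. The exception was Pi16, at -0.14 and 0.20. None of the 16 was called or past 1.5-fold on average. The summed intensity of the list was 13957 and 10683 in wild type and knockout atria, and 7898 and 7205 in ventricles. Its part in the differences of Cxcl12, Timp4 and other genes that fibroblasts may express was not tested.

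Endothelial markers had a median of 0.03 over 15 genes, smooth muscle and pericyte markers -0.04 over 11 and macrophage markers -0.01 over 11, the last with its sign turned under quantile normalization and lowess centring. The cardiomyocyte markers had a median of -0.03, with its sign turned under quantile normalization. Of the adipocyte markers Car3 stood at -2.09 in the atrial and 0.74 in the ventricular pair, Fabp4 at -0.26 and -0.15 and Cidea at 0.29 and 0.62. Pnpla2 was at -0.02 and 0.02 and Lipe at -0.07 and 0.14. Below the floor in ventricles, Cyp2e1 was at -1.72 and 0.08 and Retn at -1.07 and -0.13. Adipoq, below it on all arrays, was at -0.73 and -0.12. Plin1 and Cidec, also below it on all arrays, were at 0.04 and 0.04 and at 0.12 and -0.08. Lep was likewise below it, at 0.20 and -0.44, as was Ucp1 at 0.10 and 0.08. Xist was at -0.33 and -0.15, and the Y-linked genes Eif2s3y at -0.27 and 0.03 and Uty at -0.03 and -0.04.

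Signs matched between the chambers more often among larger differences. Of all 9437 genes 57.7% had the same sign in both. The share was 52.7% among genes under 0.1 (log2) in atria and 78.6% among the 42 at 1 or more. By size in ventricles it went from 53.3% to 92.3% of 26 genes. The 2 comparisons share no array, but if the same mice gave both chambers they are not independent. Both knockout arrays were below both wild type arrays in 1037 genes (11.0%) and above them in 797 (8.45%).

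The genes past 1.5-fold were not spread evenly over levels. With all genes in 10 equal groups by level, the dimmest group held 16 of them and the brightest 5. The SD of the mean log2 ratio was 0.21 in the former and 0.13 in the latter. Of the 54 lower genes 27 were below the floor on a knockout array, and of the 25 higher genes 11 were below it on a wild type array, so their size there is a compressed one. The atrial difference was the larger in 38 of the lower and 17 of the higher genes. By the atrial pair alone 160 genes were past 1.5-fold lower and 60 higher, and by the ventricular pair alone 53 and 39.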

How the data were processed

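Total RNA of dissected chambers, pooled over 7 mice per group, was labelled with biotin after whole-transcript amplification and hybridised to 1 array per group, per the labels' protocols. The authors deposited 1 log2 intensity per probe set, made with RMA and the affy package per the submitters' processing notes. The sources used here name neither versions, nor the array design, nor any step after RMA. Scale and centring beyond RMA stay unknown. Column medians were 5.72, 5.75, 5.69 and 5.66 for wild type atria, knockout atria, wild type ventricles and knockout ventricles. RMA compresses differences near background, and precision is limited by how few arrays there are.

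Of 21212 probe sets 18786 had 1 gene symbol, 6 several and 2420 none in the platform annotation. Symbols were updated through a RefSeq table of GRCm38.p6, where gene numbers matched 18775, accessions 4, and 7 were left as annotated. For 3 symbols with several probe sets the brightest was kept, which left 18783 genes. Genotype was fitted with chamber as a block in limma 3.58.1 (R 4.3.3), with eBayes over all probe sets, and the step was tested on simulated data. List summaries and figures were made in Python 3.11.15.

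Genes were named by rule: the 12 highest and 12 lowest means among genes past 1.5-fold with the same sign (called genes first), and per list up to 3 called genes per direction or the 2 largest. The MEF2 family and up to 5 genes opposite in the chambers were added. Predicted genes, clone names, small RNAs and olfactory receptors were counted and not named. Some further genes, such as Neb, Tmod4 and Mt1, were named after their values were seen. The members, the 47 gene lists (855 genes, 768 on the array, 599 above the floor) and the tests were chosen with earlier results of these data known, so a list's direction is not independent evidence and lists carry no p. Lists not described had 0 called genes. Alternatives were another block, variance prior, scaling or floor, and each pair alone.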

Additional observations from a re-analysis of the deposited data

Results flagged for a closer look

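Car3, carbonic anhydrase 3, went in opposite ways in the chambers by more than 1.5-fold each. This held for 2 genes above the floor, and the other was of a class not named here. Car3 is described below. Car3 read 7.58 in wild type and 5.50 in knockout atria, a log2 ratio of -2.09, and 5.74 and 6.48 in ventricles, a ratio of 0.74. Its mean of -0.67 ± 2.00 (SD, n = 2) therefore describes neither chamber. The difference between the chambers was not tested. Of the other adipocyte markers Cyp2e1 was at -1.72 in atria and 0.08 in ventricles, Retn at -1.07 and -0.13 and Adipoq at -0.73 and -0.12, while Cidea was at 0.29 and 0.62 and Thrsp at 0.59 and 1.83. The part of adipocyte RNA in the difference was not tested. With 1 array per group no array could be set against others of its own group.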

How the results depend on the processing

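The count of genes called by limma was 1 as reported. It was 0 with no chamber block, 3 after quantile normalization, 3 after lowess centring, 21 with an intensity trend, 31 after median centring and 31 with the floor applied before the fit. It stayed at 1 in the robust fit, with no floor and with the higher floor at percentile 75. The 54 lower and 25 higher genes past 1.5-fold became 86 and 55 with no floor, 17 and 5 with that higher floor and 15 and 5 at 2-fold. They became 160 and 60 by the atrial pair alone, and by the ventricular pair alone 53 and 39. Under the 3 scalings they stayed between 51 and 53 lower and between 25 and 28 higher. The MEF2 share in promoter windows of lower genes (6.52%) lay between 4.55% and 14.3% under 4 alternatives chosen after seeing the data, all inside its interval. That interval is wide, the 2-fold set is part of the 1.5-fold set and the scalings use the same arrays. Staying inside it therefore says little. No called gene reversed its sign. Leaving out an array leaves 1 pair and no residual degrees of freedom, so the single-pair values have no test. Each group is 1 array, so the only pairing was by chamber, which served as the block. Of 272 recomputed list medians 42 moved by more than the spread between chambers. The causes of these shifts were not tested, apart from the smaller or larger sets of genes that a floor or fold leaves by construction.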

Other observations

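Exact ties occurred within pairs. In 18 of the genes above the floor the 2 ventricular values were identical to every deposited digit, and in 5 the 2 atrial values were. Hadhb was among the former, at 9.08 on both ventricular arrays, while its atrial values were 8.17 and 6.42.

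Probe sets without exactly 1 gene symbol numbered 2426, of which 975 were above the floor in both pairs. Of these 7 were past 1.5-fold lower with the same sign, 3 higher and 0 called by limma's main fit. They were not named.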
